A study of Saccharomyces cerevisiae with 55 samples.

Results

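The 9 genes described here encode transport proteins of Saccharomyces cerevisiae, most of them plasma membrane permeases that import nitrogen compounds. They were chosen by their symbols in the platform annotation, with earlier results of these data known. Counts of members set beside shares over all genes are therefore descriptions. The genes are GAP1, MEP1, MEP2, MEP3, PUT4, UGA4, DAL4, DAL5 and OPT2, each measured by 1 probe, among 6249 genes or probes measured in all. GAP1 encodes the general amino acid permease. MEP1, MEP2 and MEP3 encode ammonium permeases, and MEP2 also acts as an ammonium sensor for filamentous growth. PUT4 encodes the proline permease, UGA4 the permease for gamma-aminobutyric acid (GABA), DAL4 the allantoin permease, DAL5 the allantoate permease, and OPT2 a member of the oligopeptide transporter family.

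Most of these permease genes are known targets of nitrogen catabolite repression. On rich nitrogen sources the kinase complex TORC1 is active, and the GATA activators Gln3 and Gat1 are kept from their target promoters. When preferred nitrogen runs short, or when rapamycin inhibits TORC1, these activators enter the nucleus, and permeases and enzymes for poorer nitrogen sources are transcribed. Some members have further inputs: the allantoin genes respond to pathway intermediates through Dal81 and Dal82, and UGA4 to GABA through Uga3.

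The study used 55 two-colour arrays, each with 2 labelled RNAs, to compare MATa strains of the W303 background, each mutant represented by 1 strain, in mid-log growth in YEPD, a rich medium, and under stress. Every mutant was set against wild type (ACY044) in the same condition, on 2 or 3 arrays a condition except where given. The mutants were a kcs1 vip1 double mutant (kcs1vip1), vip1, kcs1, arg82 and ipk1, all lacking kinases of the inositol polyphosphate and inositol pyrophosphate pathway, then Vip1D487A, which carries an altered Vip1, and Rpd3ibs, rpd3 (1 array a condition) and snt1. Rpd3 is a histone deacetylase, Snt1 is a subunit of another deacetylase complex, and the labels do not explain the abbreviation ibs. These 9 mutants were compared with wild type in log growth and in 0.375 M KCl, an osmotic stress. The kcs1vip1 mutant was also compared with wild type in 0.4 mM H2O2 (2 arrays) and after a 42 °C heat shock (1 array). Other arrays set stress over log growth within 1 strain: wild type in KCl (3 arrays), H2O2 (2), heat (1) or 200 nM rapamycin (1), and kcs1vip1 in KCl (1) or H2O2 (1). In kcs1vip1, 3 arrays set KCl plus 200 nM rapamycin over KCl alone. Every treatment lasted 20 min. Nothing in the labels says whether arrays of 1 group came from separate cultures, so p-values measure the spread between arrays, which may be technical.

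All values are log2 ratios of the first-named RNA over the second, so 1 unit is a 2-fold difference, and they are not levels of 1 gene against another. No source used here gives the base of the deposited logarithm, which was read as 2. RNA was taken from whole cultures, so fewer expressing cells and less RNA per cell cannot be told apart. A gene was called when its limma test, run over all genes, had a Benjamini-Hochberg adjusted p under 0.05. An adjusted p below is from that fit unless an alternative fit is named with it, such as 1 array left out. Alternative fits were adjusted in the same way. Comparisons with 1 array were not tested, and there a 2-fold ratio is used as a description.

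Several arrays stood apart or went against their labels. A deleted gene was measured on 12 arrays of mutant over wild type and was low on 10 of them, from -9.33 for VIP1 to -4.17 for ARG82. The exceptions were array 2 of kcs1 in log growth, where KCS1 was at -0.30, and the heat array whose label sets kcs1vip1 over wild type, where VIP1 was at -0.01. In kcs1 in log growth IPK1, which is not the gene named in that label, was at -2.87 on 1 array and 0.35 on the other. On the other 22 arrays the deleted gene had no value. Array 2 of ipk1, in log growth and in KCl, correlated with the other ipk1 arrays of its condition over all genes at r from 0.095 to 0.351, and array 2 of kcs1 in log growth with array 1 at 0.142. The dye-swapped Vip1D487A arrays correlated with their unswapped partners at 0.016 and 0.153, while the swapped wild-type KCl array correlated with its partners at 0.886 and 0.908. Arrays held 5216 to 6206 values. Array medians lay between -0.09 and 0.05, except 0.38 for wild type with rapamycin.

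The comparisons that involve kcs1vip1 also form closed loops, in which stress over log growth in kcs1vip1 can be measured on its own array or summed from 3 other comparisons. For KCl the sum followed the direct array, with r = 0.887 over 5763 genes, and GAP1 was at -1.57 by the sum and -1.40 directly. The gap was widest for DAL4, at -1.26 by the sum and -0.10 directly, and DAL5 was at -0.71 and -0.12. For H2O2 the loop did not close: r was 0.541 over 5792 genes, and the sum put GAP1 at 5.28, PUT4 at 3.98 and MEP2 at 3.77, where the direct array had 1.46, 0.24 and 0.60. The arrays labelled kcs1vip1 over wild type in H2O2 correlated with the array of kcs1vip1 in H2O2 over log growth at 0.669 and 0.598. The heat array with the label kcs1vip1 over wild type correlated with wild-type heat over log growth at 0.769. The values from these arrays are therefore given apart from the others, under their labels.

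**Figure D1:**
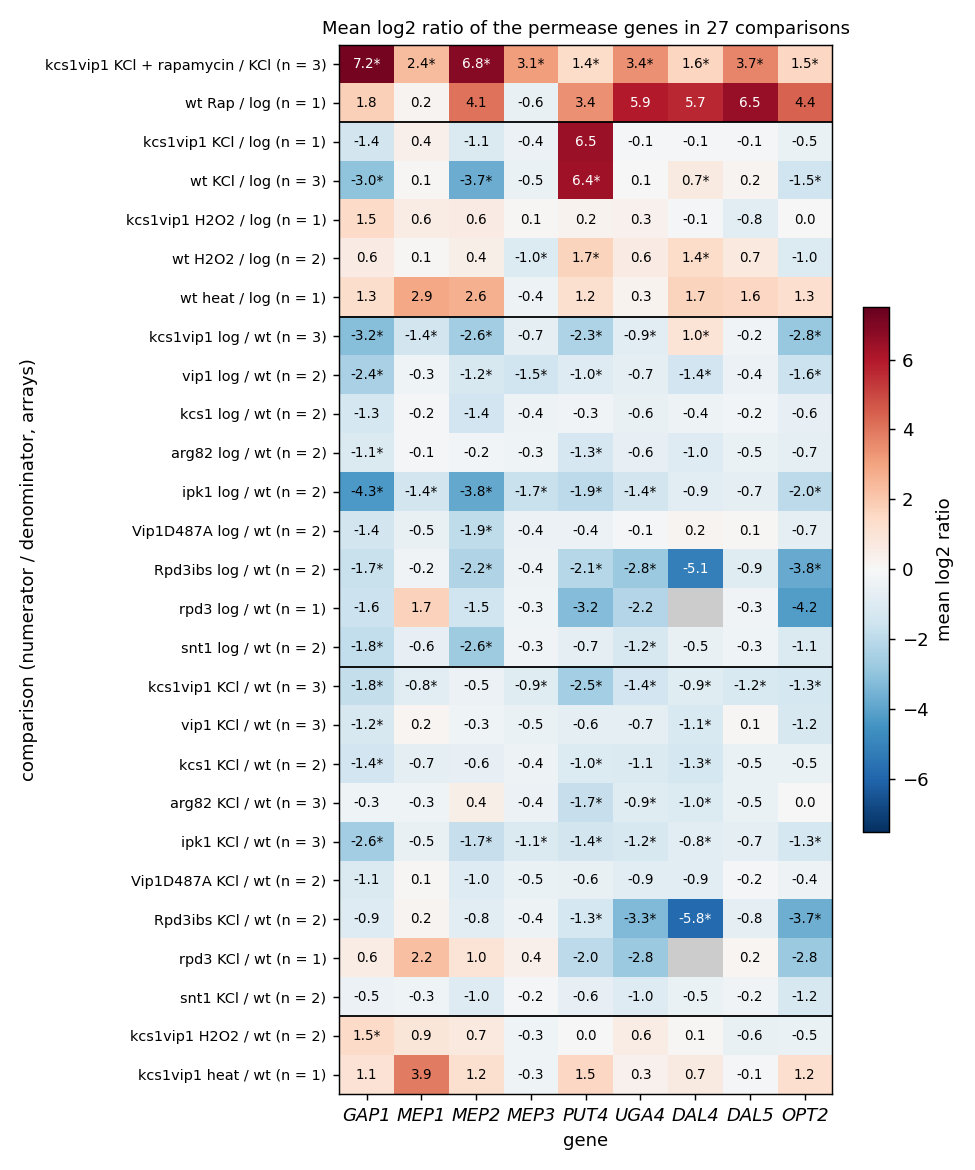
Mean log2 ratio of each permease gene (columns) in each of 27 comparisons (rows, numerator over denominator, with the number of arrays), on a colour scale that runs from blue (lower in the numerator) to red (higher). Asterisks mark an adjusted p under 0.05, single arrays were not tested and grey means no value. Rapamycin rows are mostly red, mutant rows mostly blue, and PUT4 in KCl over log growth stands at 6.46 in kcs1vip1 and 6.36 in wild type.

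Rapamycin, added together with KCl to kcs1vip1 cells, raised all 9 permease genes. Over all 6052 genes tested, 2.48% were called higher and 5.06% were called in either direction. The median of the members was 3.15, against -0.003 over all genes tested. The largest of the 9 ratios were those of GAP1 (145-fold) and MEP2 (115-fold).

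GAP1 was at 6.88, 8.32 and 6.33 on the 3 arrays of kcs1vip1 with KCl plus rapamycin over KCl alone, with a mean of 7.18 (SE 0.31, a 145-fold difference, adjusted p = 6.34e-18). MEP2 was at 6.23, 8.16 and 6.15, with a mean of 6.85 (SE 0.30, 115-fold, adjusted p = 6.34e-18). Both genes were highest on array 2, and no array had either below 6. The other ammonium permease genes rose less: MEP3 averaged 3.15 (values 3.39, 3.55 and 2.50, adjusted p = 1.97e-09) and MEP1 averaged 2.37 (values 1.68, 2.78 and 2.65, adjusted p = 1.16e-07). The proline permease gene PUT4 had 1.07, 1.34 and 1.79 and the smallest mean of the 9, at 1.40 (adjusted p = 0.000243).

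Among the permeases for GABA and allantoin compounds, DAL5 was at 2.57, 4.74 and 3.71 on these arrays, a mean of 3.67 (SE 0.30, 12.8-fold, adjusted p = 2.01e-10). UGA4 was at 2.30, 4.56 and 3.48, a mean of 3.45 (SE 0.33, 10.9-fold, adjusted p = 3.72e-09). Array 1 was lowest and array 2 highest for both, as for DAL4 (0.89, 2.22 and 1.70, mean 1.60, adjusted p = 0.000589) and OPT2 (0.85, 2.10 and 1.66, mean 1.54, adjusted p = 0.00961). Without array 2, 7 of the 9 members passed: DAL4 was at 1.30 (adjusted p = 0.0638) and OPT2 at 1.26 (adjusted p = 0.29). Without array 3, OPT2 alone was lost (1.48, adjusted p = 0.0671). Fitted on these 3 arrays alone, DAL4 and OPT2 did not pass (adjusted p = 0.0531 each).

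The single array of wild type with rapamycin over log growth, without KCl, ordered the members differently. DAL5 was at 6.52, UGA4 at 5.93 and DAL4 at 5.66, where the median of all genes on that array was 0.38. OPT2 had 4.42, MEP2 had 4.07 and PUT4 had 3.44. GAP1 was at 1.76, which 89.5% of the genes on the array lay below, whereas MEP1 (0.23) and MEP3 (-0.57) were near or under the array's median. At least a 2-fold higher ratio was seen for 7 of 9 members, against 28.2% of all genes, and after centring the array on its median 7 of 9 members remained past that ratio, against 17.7% of all genes. Strain, medium and reference all differ between this array and the KCl plus rapamycin arrays, so no comparison between them was tested.

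**Figure D2:**
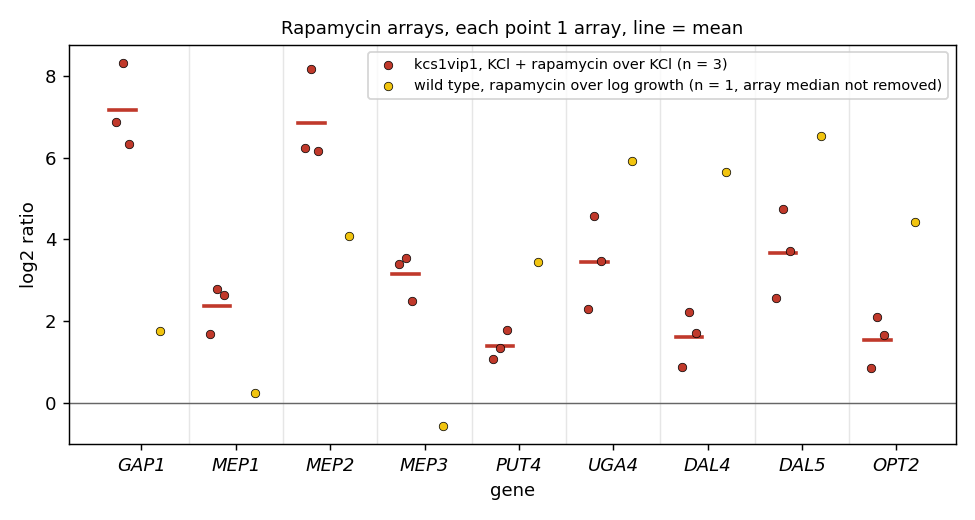
Log2 ratio (vertical axis) of each permease gene (horizontal axis) on the rapamycin arrays, with 1 point per array and a line at the mean of the 3 kcs1vip1 arrays. In kcs1vip1 with KCl, GAP1 (mean 7.18) and MEP2 (6.85) stand highest, and on the wild-type array without KCl DAL5 (6.52), UGA4 (5.93) and DAL4 (5.66) do.

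Other genes of nitrogen metabolism were read beside the permeases in the kcs1vip1 rapamycin comparison. Of 20 enzymes of nitrogen breakdown and assimilation tested, 10 rose and none fell, led by DAL3 (ureidoglycolate lyase, 3.71), GDH1 (glutamate dehydrogenase, 3.29), PUT1 (proline oxidase, 2.96) and GLN1 (glutamine synthetase, 2.74). Of 20 regulators 4 rose: DAL80, a GATA repressor that is itself a target of the pathway (4.57), GAT1 (1.28), GZF3 (0.95) and NPR2 (0.59). The list of the SPS amino acid sensor and its target permeases had 4 of 14 higher and 1 lower, led by AGP1 (a broad amino acid permease, 6.56), PTR2 (a peptide transporter, 3.84) and DIP5 (3.27). Of 17 other permeases 4 rose, with CAN1 (arginine permease) at 3.22 and OPT1 (oligopeptide transporter) at 2.93. The medians of these lists were 0.86, 0.04, 0.40 and 0.48, against -0.003 over all genes tested. Of 20 common stress-induced marker genes 2 rose, and of 20 ribosome biogenesis genes 1 fell. These lists were chosen with earlier results of these data known.

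In wild type, KCl split the permease genes: PUT4 rose 81.9-fold, GAP1, MEP2 and OPT2 fell, and most of the others showed little. Of 9 members 5 were called, 2 higher and 3 lower. That was near the share over all genes, of which 60.9% were called in this comparison (29.6% higher and 31.3% lower). PUT4 was at 6.65, 6.19 and 6.23 on the 3 arrays of KCl over log growth, with a mean of 6.36 (SE 0.24, adjusted p = 1.01e-20). The same gene stood at 6.46 on the single array of kcs1vip1 in KCl over log growth, where 99.5% of genes were lower.

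GAP1 was at -2.17, -3.71 and -3.15 in wild-type KCl over log growth, a mean of -3.01 (SE 0.31, adjusted p = 2.84e-10). MEP2 was at -3.08, -4.23 and -3.82, a mean of -3.71 (SE 0.30, adjusted p = 1.36e-12). The dye-swapped array, array 1, had the smallest decrease of each. OPT2 was at -0.38, -2.14 and -1.94, a mean of -1.49 (adjusted p = 0.000767), and here too the swapped array stood nearest to 0. In kcs1vip1 the single KCl array had GAP1 at -1.40, MEP2 at -1.07 and OPT2 at -0.51.

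DAL4 passed narrowly in wild-type KCl, at 1.17, 0.77 and 0.07 with a mean of 0.67 (adjusted p = 0.0498), and was lost without array 1 (0.42, adjusted p = 0.337) or array 2 (0.62, adjusted p = 0.161). UGA4 averaged 0.05, MEP1 0.07, DAL5 0.20 and MEP3 -0.51, and none of them passed. UGA4 and DAL5 had array 1 above 1 (1.27 and 1.16) and array 3 below 0 (-0.62 and -0.72), so their arrays disagreed in sign. PUT1, which encodes the oxidase that breaks proline down, fell in the same comparison, at -2.03 (SD 1.36, n = 3, adjusted p = 0.000792). This gene was named after its value was seen. Of the 20 enzymes of nitrogen breakdown and assimilation tested there, 11 were higher and 4 lower (median 0.63, against -0.02 over all genes tested). All 20 common stress-induced marker genes were higher in KCl (median 5.99) and all 20 ribosome biogenesis genes lower (median -4.94), and their part in the permease ratios was not tested.

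In H2O2 the pattern was another. PUT4 rose in wild type, with 1.75 and 1.58 on the 2 arrays and a mean of 1.67 (SE 0.29, adjusted p = 2.86e-05), and DAL4 rose with 1.66 and 1.15 (mean 1.41, adjusted p = 0.00215). MEP3 fell, with -0.72 and -1.38 (mean -1.05, adjusted p = 0.0159). Of the 9 members 3 were called, a smaller share than the 43.4% of all genes. Without array 1 neither MEP3 (-1.38, adjusted p = 0.0511) nor DAL4 (1.15, adjusted p = 0.121) passed, and without array 2 MEP3 did not (-0.72, adjusted p = 0.29). GAP1 had 0.81 and 0.42 and MEP2 had 0.90 and 0.00, and neither passed. Here too all 20 stress markers were higher (median 2.74) and all 20 ribosome biogenesis genes lower (median -2.10), with no test of their part.

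The difference between the stresses in wild type, KCl minus H2O2, was tested directly. GAP1 differed by -3.63 (95% interval -4.61 to -2.64, adjusted p = 5.8e-07), MEP2 by -4.16 (-5.12 to -3.20, adjusted p = 3.38e-08) and PUT4 by 4.69 (3.92 to 5.46, adjusted p = 2.56e-11). These 3 of 9 members passed, near the share of 32.8% over all genes (14.8% higher and 18.0% lower). Each kept its call when any 1 array was left out. With arrays scaled to 1 spread GAP1 was at -2.10 and did not pass (adjusted p = 0.0718). For OPT2 the difference was -0.45 with an interval of -1.63 to 0.73.

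After heat shock the single wild-type array had 7 of 9 members at or above a 2-fold ratio, against 15.9% of all genes. MEP1 (2.88) and MEP2 (2.64) were the highest, ahead of DAL4 (1.69), DAL5 (1.56), GAP1 (1.29), OPT2 (1.27) and PUT4 (1.19). MEP3 (-0.37) and UGA4 (0.26) were not past that ratio. This was the highest MEP1 ratio among the wild-type stress and rapamycin arrays, and MEP1 and MEP3, closely related in sequence, lay on opposite sides of 0 here. Whether each probe measures only 1 of them was not tested.

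**Figure D3:**
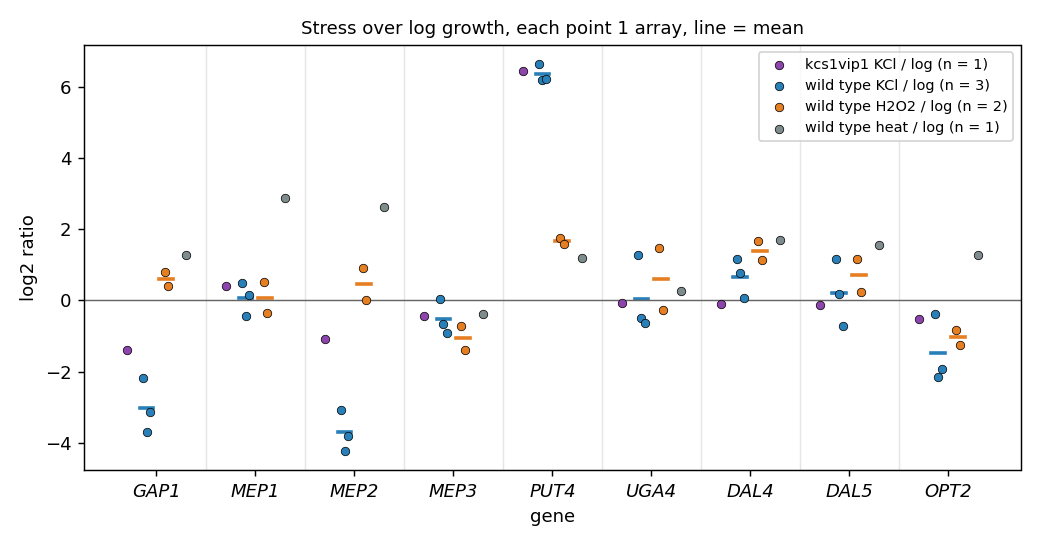
Log2 ratio (vertical axis) of each permease gene (horizontal axis) in stress over log growth, with 1 point per array and a line at the mean where there is more than 1. PUT4 stands at 6.46 in kcs1vip1 and between 6.19 and 6.65 in wild type in KCl, apart from all other values, while GAP1 and MEP2 lie below 0 in KCl and above 0 in heat.

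In kcs1vip1 cells in log growth, 6 of the 9 permease genes fell relative to wild type and DAL4 rose. In this comparison 37.9% of all genes were called (18.9% higher and 19.0% lower). The median of the members was -1.35, against -0.01 over all genes. GAP1 was at -3.71, -2.82 and -3.11 on the 3 arrays, a mean of -3.21 (SE 0.31, 9.27-fold lower, adjusted p = 8.23e-10). MEP2 was at -3.05, -2.35 and -2.38, a mean of -2.59 (SE 0.30, adjusted p = 3.47e-08). All 3 arrays put both genes at least 4-fold below wild type.

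MEP1 fell too, with -1.69, -0.96 and -1.40 (mean -1.35, adjusted p = 0.000125), whereas MEP3, at -1.53, -0.25 and -0.18, did not pass (mean -0.65, adjusted p = 0.0713). PUT4 was at -3.18, -1.95 and -1.81 (mean -2.31, adjusted p = 4.61e-09), and OPT2 at -3.88, -2.70 and -1.89 (mean -2.82, adjusted p = 3.87e-07). Array 1 had the lowest value of each of these 4 genes. The GABA permease gene UGA4 passed with a mean of -0.87 (-1.38, -0.22 and -1.01, adjusted p = 0.0368), and was lost without array 1 (-0.62, adjusted p = 0.276) or array 3 (-0.80, adjusted p = 0.14). DAL4 went the other way, at 0.85, 1.72 and 0.51 (mean 1.03, adjusted p = 0.00679), and was lost without array 2 (0.68, adjusted p = 0.139). DAL5 averaged -0.24, with arrays on both sides of 0.

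In KCl, 8 of 9 members were lower in kcs1vip1 than in wild type, and in this comparison 50.3% of all genes were called (24.8% higher and 25.6% lower). PUT4, the member that KCl raised most in wild type, was at -2.59, -2.13 and -2.84, a mean of -2.52 (SE 0.24, 5.74-fold lower, adjusted p = 4.27e-10). GAP1 was at -2.19, -2.08 and -1.05 (mean -1.77, adjusted p = 1.8e-05) and UGA4 at -1.51, -1.27 and -1.46 (mean -1.41, adjusted p = 0.000735). The exception was MEP2, with -0.79, -0.55 and -0.03 (mean -0.46, adjusted p = 0.203).

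The remaining calls in KCl were MEP1 (-0.79), MEP3 (-0.91), DAL4 (-0.90), DAL5 (-1.16) and OPT2 (-1.34), with adjusted p from 0.00213 for DAL5 to 0.0117 for DAL4. All 5 rested on array 1, where OPT2 was at -2.69, MEP3 at -1.80 and DAL5 at -1.72. Without it 3 of 9 members passed, and OPT2 was at -0.66 (adjusted p = 0.204), MEP3 at -0.46 (adjusted p = 0.283), DAL5 at -0.88 (adjusted p = 0.0622), DAL4 at -0.83 (adjusted p = 0.0792) and MEP1 at -0.64 (adjusted p = 0.116). Without array 2 MEP3 was lost (-0.87, adjusted p = 0.0505), and without array 3 MEP1 was (-0.72, adjusted p = 0.0681).

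The ratio of kcs1vip1 over wild type was itself compared between KCl and log growth. For MEP2 it was higher in KCl by 2.14 (95% interval 1.28 to 3.00, adjusted p = 0.000228), and for DAL4 lower by 1.93 on the log2 scale, a difference of -1.93 (-2.78 to -1.08, adjusted p = 0.000671). GAP1 (1.44, 0.56 to 2.32, adjusted p = 0.0117) and OPT2 (1.49, 0.43 to 2.54, adjusted p = 0.0305) also differed, so that 4 of 9 members passed, against 27.2% of all genes. Within the 2 slides that held both conditions, MEP2 differed by 2.26 and 1.80, DAL4 by -1.91 and -2.58, GAP1 by 1.52 and 0.74, and OPT2 by 1.19 and 1.38. The arrays of KCl over log growth in each strain give this difference by another route, as kcs1vip1 (1 array) minus wild type (3 arrays). By that route it was 2.64 for MEP2, 1.61 for GAP1 and 0.98 for OPT2, but -0.77 for DAL4, which was at -0.10 in kcs1vip1 and 0.67 in wild type. The DAL4 difference of -1.93 is therefore not matched in size by the arrays of single strains.

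For PUT4 this difference between conditions was -0.21, with an interval of -0.90 to 0.48, although KCl itself raised PUT4 by over 6 units. GAP1 lost its call without array 1 in log growth (1.19, adjusted p = 0.0605) or array 3 in KCl (1.08, adjusted p = 0.0926). OPT2 lost its call without array 1 (0.96, adjusted p = 0.194) or 2 (1.55, adjusted p = 0.0595) in log growth and without array 2 (1.48, adjusted p = 0.0667) or 3 (0.82, adjusted p = 0.262) in KCl. MEP2 and DAL4 kept theirs whichever of these 6 arrays was left out.

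Stress and ribosome biogenesis genes moved in the same comparisons. In kcs1vip1 over wild type in log growth 16 of 20 common stress-induced marker genes were higher and none lower (median 1.43), while in KCl 12 of 20 were lower and none higher (median -1.0). Of 20 ribosome biogenesis genes 4 were lower in log growth (median -0.47) and 19 were higher in KCl (median 2.61). Their part in the permease ratios was not tested. The enzyme genes of nitrogen breakdown and assimilation did not follow 1 direction: in log growth 8 of 20 were higher and 4 lower. PRB1 (vacuolar proteinase B) was at 2.38, but GDH1 was at -4.01, DAL1 (allantoinase) at -2.17 and DAL3 at -2.17. The GATA repressor gene DAL80 was lower in kcs1vip1 in both conditions, at -1.53 in KCl and -1.15 in log growth.

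In vip1 in log growth, 6 of 8 members tested were lower than in wild type, against 19.1% of all genes (9.12% higher and 9.97% lower). GAP1 was at -2.74 and -2.08 (mean -2.41, SE 0.37, adjusted p = 8.34e-05), OPT2 at -2.21 and -1.04 (mean -1.63, adjusted p = 0.0119) and MEP3 at -1.31 and -1.71 (mean -1.51, adjusted p = 0.00396). DAL4 was at -2.01 and -0.81 (mean -1.41, adjusted p = 0.0074), MEP2 at -1.47 and -0.98 (mean -1.23, adjusted p = 0.0187) and PUT4 at -1.18 and -0.76 (mean -0.97, adjusted p = 0.0201). Array 1 was the lower one except for MEP3.

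Each of these 2 arrays alone gave fewer calls: 1 of 8 members without array 1, where only GAP1 passed, and 3 without array 2. In these single-array fits MEP2 (-0.98 and -1.47), MEP3 (-1.71 and -1.31) and PUT4 (-0.76 and -1.18) were lost both times, with adjusted p of 0.423 and 0.0865, 0.095 and 0.113, and 0.447 and 0.0865. DAL4 (-0.81, adjusted p = 0.51) and OPT2 (-1.04, adjusted p = 0.501) were lost without array 1. In KCl, vip1 had GAP1 at -1.28, -1.11 and -1.18 (mean -1.19, adjusted p = 0.0131) and DAL4 at -1.10, -1.05 and -1.26 (mean -1.14, adjusted p = 0.0144), so 2 of 9 members were called, against 9.40% of all genes (4.63% higher and 4.77% lower). These 3 arrays lay close together for both genes, but with any 1 of them left out neither gene passed, at -1.15 to -1.23 for GAP1 (adjusted p from 0.0724 to 0.135) and -1.08 to -1.18 for DAL4 (adjusted p from 0.0776 to 0.12).

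In kcs1, no member was called in log growth, where 0.440% of all genes were called (0.254% higher and 0.186% lower) and array 2 is the one with KCS1 at -0.30. GAP1 was at -1.02 and -1.63 and MEP2 at -1.23 and -1.63, the only 2 members below -1 on both arrays. In KCl GAP1 (-1.43 and -1.41, mean -1.42, adjusted p = 0.0169), DAL4 (-1.16 and -1.52, mean -1.34, adjusted p = 0.0201) and PUT4 (-0.86 and -1.16, mean -1.01, adjusted p = 0.0302) were lower in kcs1 than in wild type, 3 of 9 members against 7.97% of all genes (2.71% higher and 5.26% lower). Each fell out when either array was removed, with adjusted p from 0.187 to 0.35.

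In arg82, PUT4 was the member lowered in both conditions, with -1.57, -1.94 and -1.61 in KCl (mean -1.71, SE 0.24, adjusted p = 3.08e-06) and -1.30 and -1.24 in log growth (mean -1.27, adjusted p = 0.00342). DAL4 (mean -1.03, adjusted p = 0.00873) and UGA4 (mean -0.90, adjusted p = 0.0359) were also lower in KCl, and GAP1 in log growth (-0.96 and -1.22, mean -1.09, adjusted p = 0.0414). That made 3 of 9 members in KCl, against 32.0% of all genes, and 2 of 8 in log growth, against 17.2% (7.63% higher and 9.58% lower). MEP2 stayed near wild type in arg82, with 0.48, 0.64 and 0.18 in KCl and -0.30 and -0.14 in log growth. UGA4 in KCl lost its call without any 1 of the 3 arrays (-0.73 to -1.03, adjusted p from 0.0816 to 0.199), and with slide as a random block (-0.80, adjusted p = 0.0785). DAL4 lost its call without array 2 (-0.91, adjusted p = 0.0833). In log growth neither GAP1 (adjusted p = 0.271 and 0.342) nor PUT4 (adjusted p = 0.144 and 0.0879) passed on 1 array.

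The double mutant was set against the single mutants directly. In log growth, PUT4 was lower in kcs1vip1 than in kcs1 by 2.05 on the log2 scale, a difference of -2.05 (95% interval -2.82 to -1.28, adjusted p = 0.000577), and than in vip1 by -1.34 (-2.12 to -0.57, adjusted p = 0.008). GAP1 differed by -1.89 from kcs1 (adjusted p = 0.0119) and by -2.12 from arg82 (adjusted p = 0.00823), and from vip1 by -0.80 with an interval of -1.79 to 0.18. MEP2 differed by -2.37 from arg82 (adjusted p = 0.00213) and by -1.37 from vip1 (adjusted p = 0.0272). OPT2 differed by -2.23 from kcs1 (adjusted p = 0.0135) and by -2.16 from arg82 (adjusted p = 0.029). The kcs1 differences in log growth rest on the 2 arrays that correlated at 0.142, with KCS1 at -0.30 on array 2. Without that array OPT2 differed from kcs1 by -2.42 and lost its call. DAL4 was higher in the double mutant, by 2.44 over vip1 (1.49 to 3.39, adjusted p = 0.000254) and by 2.00 over arg82 (adjusted p = 0.0103).

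The counts of members called in log growth were 3 of 8 against vip1, 3 of 9 against kcs1 and 4 of 8 against arg82, where 30.4%, 6.97% and 3.51% of all genes were called. In KCl the double mutant had PUT4 lower than vip1 by -1.87 (-2.56 to -1.18, adjusted p = 0.000218) and than kcs1 by -1.51 (adjusted p = 0.00601), DAL5 lower than vip1 by -1.22 (adjusted p = 0.0487) and GAP1 lower than arg82 by -1.44 (adjusted p = 0.028). These are 2, 1 and 1 of 9 members, against 15.9%, 15.3% and 11.1% of all genes. With arrays scaled to 1 spread the members called were 0 in each of these comparisons except kcs1vip1 over vip1 in log growth. Leaving out 1 array ended the call of every difference in log growth other than 2, with adjusted p from 0.0632 to 0.284 where it was lost. In KCl it ended those of DAL5 against vip1 (adjusted p from 0.091 to 0.218), PUT4 against kcs1 without kcs1 array 1 (-1.36, adjusted p = 0.127) and GAP1 against arg82 (adjusted p from 0.071 to 0.135). The calls of PUT4 against kcs1 and DAL4 against vip1 in log growth, and of PUT4 against vip1 in KCl, held whichever array was left out.

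With slide as a fixed block the calls against kcs1 were kept in both conditions, and those against arg82 were all lost. In log growth MEP2 was then at -2.05 (adjusted p = 0.0665), GAP1 at -1.86 (adjusted p = 0.0692), OPT2 at -2.37 (adjusted p = 0.108) and DAL4 at 1.49 (adjusted p = 0.217) against arg82, and in KCl GAP1 was at -1.20 (adjusted p = 0.0579). Against vip1 in log growth DAL4 stayed (1.93, adjusted p = 0.0161), while MEP2 (-1.04, adjusted p = 0.17) and PUT4 (-1.21, adjusted p = 0.109) were lost. Both calls against vip1 in KCl, PUT4 and DAL5, were kept.

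**Figure D4:**
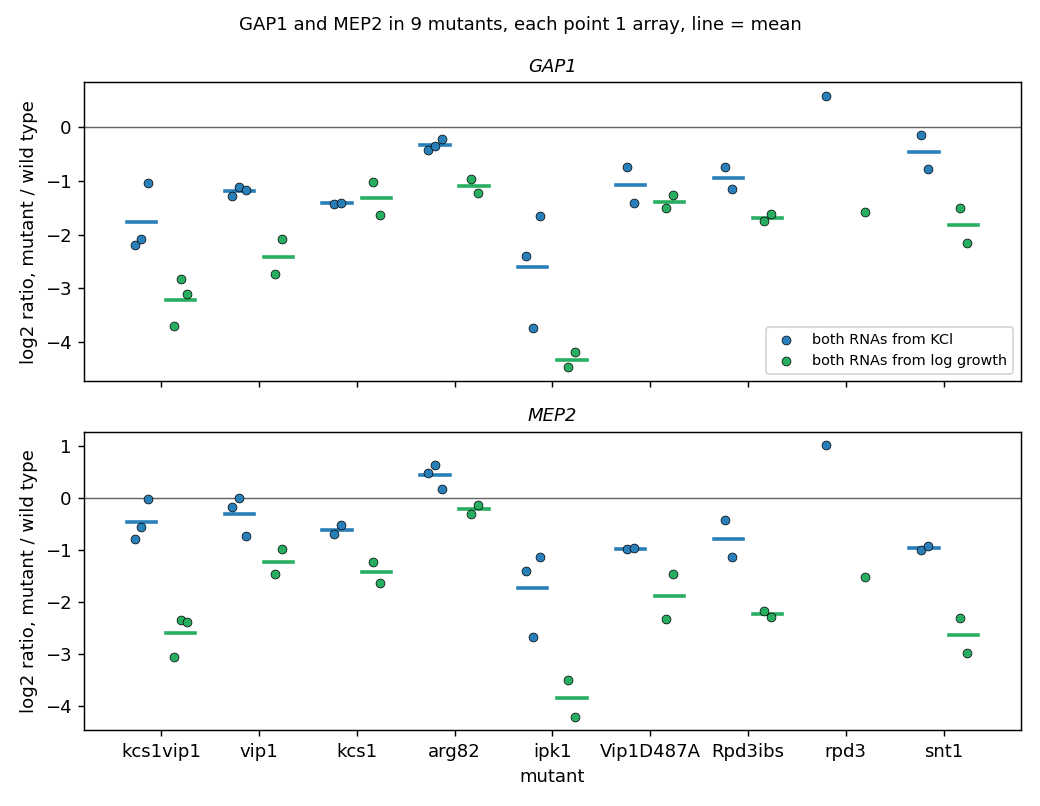
Log2 ratio of mutant over wild type (vertical axis) for GAP1 (upper panel) and MEP2 (lower panel) in 9 mutants (horizontal axis), with 1 point per array, a line at the mean, KCl in blue and log growth in green. In log growth all 18 arrays lie below 0 for both genes with the sign as deposited (17 with the swapped Vip1D487A array turned), and the lowest values are those of ipk1 (means -4.33 and -3.85).

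The largest decreases of GAP1 and MEP2 were in ipk1, which lacks the kinase that makes inositol hexakisphosphate. In log growth GAP1 was at -4.47 and -4.19, a mean of -4.33 (SE 0.37, 20.1-fold lower, adjusted p = 7.01e-10), and MEP2 at -3.49 and -4.20, a mean of -3.85 (SE 0.37, 14.4-fold lower, adjusted p = 6.72e-09). In KCl GAP1 was at -2.40, -3.74 and -1.65 (mean -2.60, adjusted p = 7.71e-07) and MEP2 at -1.40, -2.67 and -1.14 (mean -1.74, adjusted p = 0.000261). In KCl array 2 was the lowest for both, and in log growth the 2 arrays lay close together. That array 2 is the one that correlated poorly with the other ipk1 arrays over all genes. It shares a slide with array 2 in log growth, and these 2 arrays correlated with each other at 0.853, against 0.583 for array 1 in KCl and array 1 in log growth.

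In each condition 7 of 9 members were lower in ipk1 than in wild type, against 23.8% of all genes in KCl (11.4% higher and 12.4% lower) and 24.8% in log growth (12.6% higher and 12.3% lower). PUT4 (-1.39 in KCl and -1.94 in log growth), OPT2 (-1.35 and -1.98), MEP3 (-1.06 and -1.69) and UGA4 (-1.21 and -1.36) fell in both. MEP1 passed only in log growth (-1.35, adjusted p = 0.00374) and DAL4 only in KCl (-0.81, adjusted p = 0.0436), and the difference between conditions was not tested for this mutant. Without array 2 the calls were 4 of 9 in KCl and 3 of 9 in log growth. In log growth GAP1, MEP2 and PUT4 stayed, while MEP1 was at -0.72 (adjusted p = 0.372), MEP3 at -1.45 (adjusted p = 0.18), UGA4 at -0.82 (adjusted p = 0.447) and OPT2 at -2.18 (adjusted p = 0.121). In KCl, MEP3 (-0.66, adjusted p = 0.172) and OPT2 (-1.15, adjusted p = 0.0758) were lost without array 2, and DAL4 without any 1 of the 3 (-0.78 to -0.89, adjusted p from 0.0833 to 0.144). Fitted on the ipk1 arrays alone, 0 of 9 members passed in KCl and 2 of 9 in log growth.

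Many amino acid permease genes outside the group were lower in ipk1 as well. In log growth 9 of 14 genes of the SPS sensor list fell and none rose, led by BAP2 (branched-chain amino acid permease, -2.52), AGP1 (-2.21), DIP5 (-1.85) and MUP1 (methionine permease, -1.82). Of 17 other nitrogen compound permeases 12 fell and none rose, led by SAM3 (S-adenosylmethionine permease, -2.31) and MMP1 (S-methylmethionine permease, -2.08). The medians of the lists were -1.43 and -1.23, against -0.01 over all genes tested. GAT1, which encodes one of the GATA activators, was at -1.88. The arginine breakdown genes CAR2 (2.60) and CAR1 (1.67) rose, and 6 of 20 enzyme genes of nitrogen breakdown and assimilation fell.

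In Vip1D487A, MEP2 was the one member called, in log growth, at -2.32 on the unswapped array and -1.46 on the swapped one (mean -1.89, SE 0.37, adjusted p = 0.0336), where 0.0359% of all genes were called. GAP1 had -1.50 and -1.27 in log growth (adjusted p = 0.184) and -0.74 and -1.42 in KCl (adjusted p = 0.124). The deposited sign of the swapped arrays was kept, and with that sign turned MEP2 was at -0.43 (adjusted p = 0.945). The call was also lost without the unswapped array (-1.46, adjusted p = 0.521) and with slide as a random block (-1.93, adjusted p = 0.0551). In KCl no member was called, while 2.15% of all genes were (1.58% higher and 0.569% lower).

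In Rpd3ibs the allantoin, GABA and oligopeptide transporter genes stood lowest. DAL4 was at -6.24 and -5.40 in KCl, a mean of -5.82 (SE 0.36, 56.5-fold lower, adjusted p = 1.19e-13), and at -5.12 on the 1 log growth array with a value. OPT2 was at -3.40 and -3.92 in KCl (mean -3.66, SE 0.45, adjusted p = 1.84e-07) and at -3.75 and -3.85 in log growth (mean -3.80, adjusted p = 2.28e-07). UGA4 was at -3.39 and -3.24 in KCl (mean -3.32, adjusted p = 1.51e-07) and at -3.11 and -2.46 in log growth (mean -2.79, adjusted p = 6.57e-06). In neither condition did any array have OPT2 or UGA4 less than 4-fold below wild type.

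PUT4 was lower in Rpd3ibs in both conditions as well, at -1.22 and -1.46 in KCl (mean -1.34, adjusted p = 0.000655) and -2.18 and -2.06 in log growth (mean -2.12, adjusted p = 2.85e-06). GAP1 was at -1.75 and -1.62 in log growth (mean -1.69, adjusted p = 0.00131) and MEP2 at -2.18 and -2.29 (mean -2.24, adjusted p = 3.96e-05). In KCl GAP1 (mean -0.95, adjusted p = 0.0514) and MEP2 (mean -0.79, adjusted p = 0.0998) did not pass. The difference between conditions was 0.74 for GAP1 (95% interval -0.34 to 1.82) and 1.45 for MEP2 (0.40 to 2.50, adjusted p = 0.0874), and no member passed in that test. Within the 2 slides that held both conditions MEP2 differed by 1.75 and 1.15, and with slide as a random or as a fixed block 1 of the 8 members passed. In all, 4 of 9 members were called in KCl, against 31.9% of all genes, and 5 of 8 in log growth, against 20.4% (10.3% higher and 10.1% lower). GAP1 lost its log growth call without array 1 (-1.62, adjusted p = 0.0621).

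The rpd3 mutant, on 1 array a condition and so untested, had OPT2 at -2.79 in KCl and -4.17 in log growth, UGA4 at -2.78 and -2.19, and PUT4 at -1.96 and -3.24. DAL4 had no value on either array. In KCl, 3 of 8 members were at least 2-fold lower, against 15.2% of all genes, and in log growth 5 of 8 were, against 8.70%. MEP1 lay on the other side, at 2.23 in KCl and 1.73 in log growth, while in Rpd3ibs it was at 0.40 and 0.02 in KCl and -0.10 and -0.37 in log growth. GAP1 and MEP2 were at 0.58 and 1.01 in KCl and at -1.59 and -1.51 in log growth.

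In snt1, GAP1 (-1.51 and -2.15, mean -1.83, adjusted p = 0.00255), MEP2 (-2.30 and -2.98, mean -2.64, adjusted p = 1.93e-05) and UGA4 (-1.17 and -1.27, mean -1.22, adjusted p = 0.0492) were lower than in wild type in log growth, 3 of 9 members against 10.3% of all genes. In KCl none passed, with MEP2 at -1.0 and -0.93 and GAP1 at -0.15 and -0.78, while 7.87% of all genes were called. The difference between conditions was not tested. UGA4 fell out without array 1 (-1.27, adjusted p = 0.299) or array 2 (-1.17, adjusted p = 0.395), with arrays centred (-1.21, adjusted p = 0.0513) and with slide as a random block (-1.19, adjusted p = 0.0818), and GAP1 fell out without array 2 (-1.51, adjusted p = 0.22). Fitted on the 2 arrays alone, none of the 3 passed (adjusted p = 0.0505 for MEP2 and UGA4 and 0.0526 for GAP1).

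**Figure D5:**
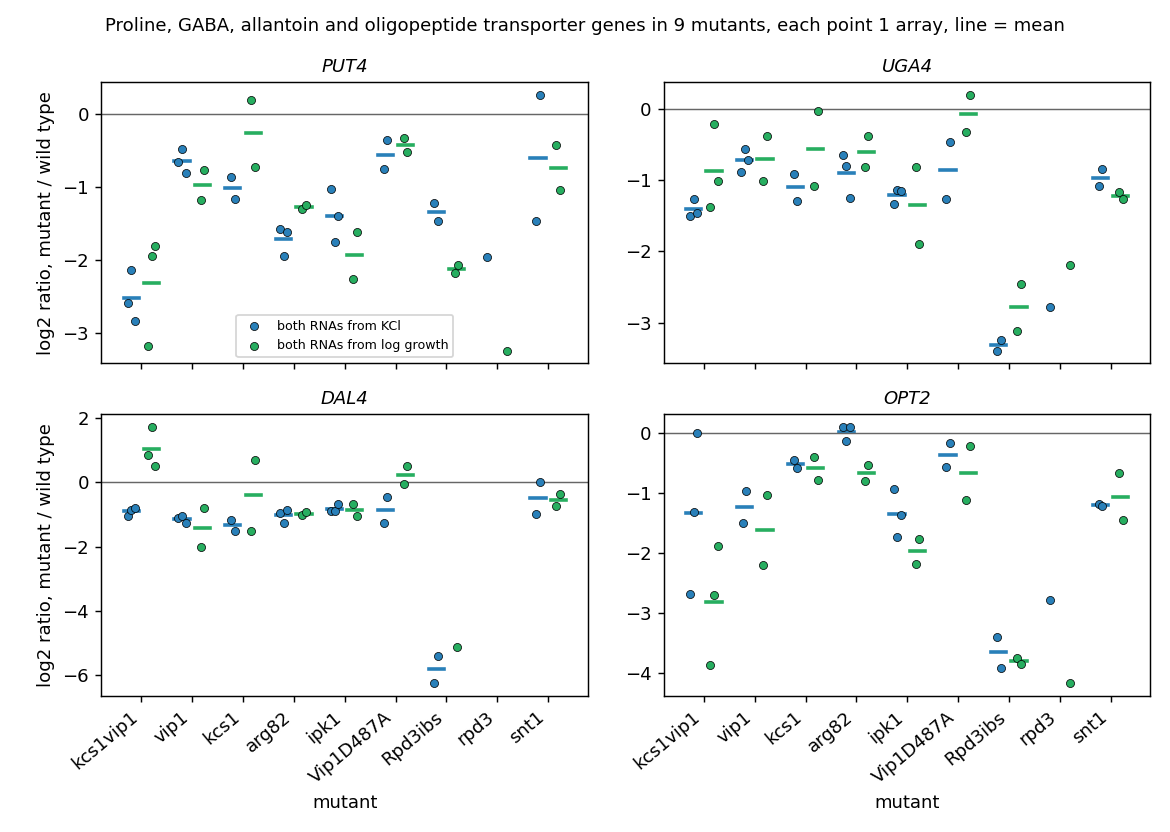
Log2 ratio of mutant over wild type (vertical axis) for PUT4, UGA4, DAL4 and OPT2 (panels) in 9 mutants (horizontal axis), with 1 point per array, a line at the mean, KCl in blue and log growth in green. DAL4 stands between -6.24 and -5.12 in Rpd3ibs, has no value in rpd3 and is above 0 on all 3 log growth arrays of kcs1vip1.

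Across the 9 mutants in log growth, GAP1 lay below 0 on 18 of 18 arrays (lowest -4.47, median -1.69, highest -0.96), and so did MEP2 (-4.20, -2.24 and -0.14) and OPT2 (-4.17, -1.61 and -0.21). PUT4 and UGA4 were below 0 on 17 of 18 arrays, with medians of -1.27 and -1.02. DAL5 ran from -1.45 to 0.70 with a median of -0.45 and was called in none of the 8 mutants tested. In KCl UGA4 was below 0 on 21 of 21 arrays (lowest -3.39, median -1.15, highest -0.47), and GAP1 and PUT4 on 20 of 21. MEP2 was below 0 on 17 of 21 KCl arrays, with a median of -0.70. These counts keep the deposited sign of the swapped Vip1D487A arrays. With it turned, the counts in log growth were 17 of 18 for GAP1, MEP2 and OPT2, 16 for PUT4 and 18 for UGA4, and in KCl 20 of 21 for UGA4, 19 for GAP1 and PUT4 and 16 for MEP2. These mutants share wild type as their comparison, and no source used here says whether 1 wild-type RNA served several arrays. How many of all genes lay below 0 on as many arrays was not counted.

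The calls per gene ran along the same lines. In log growth GAP1 and MEP2 were lower in 6 of 8 mutants tested, PUT4 in 5, UGA4 and OPT2 in 4, MEP3 in 2 of 8, MEP1 in 2 of 6 and DAL4 in 1 of 7. In KCl DAL4 was lower in 6 of 8, PUT4 in 5, GAP1 and UGA4 in 4, OPT2 in 3, MEP3 in 2, and MEP1, MEP2 and DAL5 in 1 each. These counts include calls that were lost under alternatives, as given above for each mutant. The DAL4 calls in KCl in kcs1vip1, vip1, kcs1, arg82 and ipk1 were each lost when some 1 array was left out. The MEP2 call in Vip1D487A in log growth was lost with the swapped array turned (-0.43). No member was called higher in a mutant in KCl, and DAL4 in kcs1vip1 was the only call higher in log growth. Over all genes, the share called lower ran from 0.0359% in Vip1D487A to 19.0% in kcs1vip1 in log growth. In KCl it ran from 0.569% to 25.6% in the same mutants, and the share called higher from 1.58% to 24.8%. The number of mutants in which other genes were called was not counted, so these counts per gene have no share over all genes beside them.

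The heat and H2O2 arrays with the label kcs1vip1 over wild type read differently from all of these. In H2O2 GAP1 was at 1.27 and 1.64, a mean of 1.46 (SE 0.37, adjusted p = 0.0161), the 1 member called, against 5.02% of all genes. It was lost without array 1 (1.64, adjusted p = 0.367) or array 2 (1.27, adjusted p = 0.191). MEP1 had 1.08 and 0.78, and MEP2 had 0.26 and 1.19. The heat array had MEP1 at 3.87, PUT4 at 1.54, OPT2 at 1.24, MEP2 at 1.21 and GAP1 at 1.10, 5 of 9 members at or above a 2-fold ratio, against 15.4% of all genes. On the array of kcs1vip1 in H2O2 over log growth GAP1 was at 1.46 and DAL5 at -0.80, and only GAP1 passed a 2-fold ratio, against 4.14% of all genes in either direction.

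Over the 27 comparison means, the members did not form 1 profile. Of the 36 pairs, GAP1 and MEP2 were the most alike (Pearson r = 0.938), and MEP3 also followed GAP1 (0.808). UGA4 and DAL4 (0.881, over 25 comparisons), UGA4 and OPT2 (0.878) and UGA4 and DAL5 (0.864) were also alike. These were not separate sets. Pairs of GAP1, MEP2 or MEP3 with UGA4, DAL4, DAL5 or OPT2 ran from 0.154 (MEP3 and DAL4) to 0.711 (MEP2 and DAL5). MEP2 and MEP3 reached 0.677. PUT4 was the least like the others, with r from 0.134 with MEP3 to 0.575 with UGA4. MEP1 and MEP3 reached 0.503. These correlations, and those below, are descriptions over means that share arrays, strains and slides. The means include the arrays that went against their labels and the rapamycin comparisons. In kcs1vip1 with rapamycin GAP1 (7.18) and MEP3 (3.15) had their highest means. On the wild-type rapamycin array DAL5 (6.52) and UGA4 (5.93) had theirs. Correlations without these comparisons were not computed.

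Among all genes with a symbol, GAP1 was most like AGP1 (0.946) and MEP2 (0.938), MEP2 like GAP1 (0.938) and AGP1 (0.877), and MEP3 like AGP1 (0.903) and PTR2 (0.843). UGA4 was most like DAL80 (0.933, over 25 comparisons) and AMD2 (a putative amidase, 0.923, over 26), and DAL5 like DAL7 (malate synthase of the allantoin cluster, 0.936) and AMD2 (0.884, over 26). PUT4 was most like ALD3, an aldehyde dehydrogenase (0.900), and EMI2 (0.883), and neither gene is a member. DAL4 was most like THI2 (0.903) and SRY1 (0.887), both over 25 comparisons, OPT2 like GYP8 (0.928) and UGA4 (0.878), and MEP1 like PRP46 (0.812) and ATG5 (0.801).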

How the data were processed

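Two-colour arrays were read from the value table that the authors deposited, 1 column of log ratios an array, taken as log2, with signs as deposited. Normalization, software and genome build are not given in the sources used here, and intensities were not used. Of 6317 rows 61 control spots were left out. Of 6256 probes 4075 had 1 symbol, none several and 2181 none. Symbols matched the R64 reference annotation directly (3942), by synonym (129) or were kept (4), and 7 symbols had several probes, averaged. In 3 columns with many decimals 407 exact zeros were set to missing. Groups came from the labels: 54 of 55 arrays in 27 groups (7 of 3, 13 of 2 and 7 of 1). The sources of the remaining array name KCl in both channels, against its title, so it entered no comparison.

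A group-means model of all 54 arrays was fitted in R 4.3.3 with limma 3.58.1 (27 residual and 4.63 prior degrees of freedom, prior SD 0.369), after a test on simulated data. Genes with 2 values a group were tested in 32 contrasts of means or differences, and p-values were adjusted within each. Single arrays were described by a 2-fold ratio. Python 3.11.15, pandas 2.3.3, numpy 2.4.6 and matplotlib 3.10.9 made tables and figures. The number of arrays limits the precision. Alternatives were centring, scaling, gene filters, zeros, slide blocks, robust moderation, each comparison's own arrays, turned dye swaps, doubted arrays and leaving out each array.

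The members and lists were chosen with earlier results of these data known. The genes named are the members, the altered genes, at most 4 genes a list and comparison by size among those called, and the 2 genes most like each member by Pearson r over at least 24 comparisons. PUT1 in wild-type KCl was named after its value was seen. A planned count of promoter motifs was not run. No coordinates are given, because the build of the array is not named.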

Additional observations from a re-analysis of the deposited data

Results flagged for a closer look

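In kcs1vip1 over wild type, the ratio differed between KCl and log growth by the test of the difference for 4 members. The difference, KCl minus log growth, was 1.440 for GAP1 (adjusted p = 0.0117), 2.137 for MEP2 (adjusted p = 0.000228), -1.930 for DAL4 (adjusted p = 0.000671) and 1.487 for OPT2 (adjusted p = 0.0305), all from limma with Benjamini-Hochberg adjustment.

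The other results listed here had every array of one condition on one side of 0 and every array of the other condition on the opposite side, and these differences were not tested. MEP1 in Vip1D487A differed by 0.648 between KCl (0.11) and log growth (-0.54), with the swapped arrays at their deposited sign (0.03 in KCl and -0.24 in log growth). With that sign turned, each condition had arrays on both sides of 0. In rpd3, with 1 array a condition, KCl minus log growth was 2.170 for GAP1, 2.520 for MEP2, 0.670 for MEP3 and 0.440 for DAL5. On the arrays labelled kcs1vip1 over wild type in H2O2, the difference from log growth was 4.668 for GAP1, 2.280 for MEP1, 3.318 for MEP2 and 1.425 for UGA4. On the array so labelled in heat it was 4.313 for GAP1, 5.220 for MEP1, 3.803 for MEP2, 3.853 for PUT4, 1.180 for UGA4 and 4.063 for OPT2. The H2O2 arrays did not close the loop described in the report, and the heat array had VIP1 at -0.01, and their part in these differences was not tested. No group had the 4 arrays that a check for a single outlying array needs.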

How the results depend on the processing

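No paired analysis was possible because the replicate numbers only follow the order of deposition, but arrays that share a slide were compared within it and with slide as a block. Of 97 calls on single members, none reversed under any alternative run. All 97 passed with exact zeros kept, 96 with arrays centred, 96 with robust moderation, 94 with slide as a random block, 72 with arrays scaled to 1 spread and 66 when only the arrays of the comparison were fitted. Of the 61 calls on genes with a value on every array, all 61 passed there. With 1 array left out, each call was read once per array removed, and it was kept in 206 of these 305 readings. A call lost on 1 removal can thus count as kept on another. A lone array left in a group is then assumed to vary like the other groups. Over all genes, scaling moved the count of calls by over 1.5 times in 23 of 32 contrasts, own arrays in 20 of 32, slide as a random block in 7 of 32 and as a fixed block in 4 of 12, and leaving out 1 array in 55 of 108 fits. Centring, zeros and robust moderation did so in 0 of 32. With genes on every array the members called were 3 in wild-type KCl, 1 in wild-type H2O2, 4 in kcs1vip1 in log growth and in KCl, 3 and 1 in vip1 (log growth, then KCl), 4 in ipk1 in both conditions, 5 with rapamycin, and 2 for kcs1vip1 KCl minus log and for kcs1vip1 minus arg82 in log growth, because fewer members were tested. With arrays scaled they were 1 in wild-type H2O2, 5 in kcs1vip1 and in vip1 in KCl, 2 in kcs1 in log growth, 1 in arg82 in log growth, 2 in Vip1D487A in log growth, 2 in snt1 in KCl, 3 in kcs1vip1 in H2O2, and 0 for kcs1vip1 minus kcs1 and minus arg82 in both conditions and minus vip1 in KCl. With own arrays only they were 5 in wild-type H2O2, 6 in vip1 in KCl, 0 in kcs1 in KCl, 7 in arg82 in log growth, 2 in ipk1 in log growth and 0 in KCl, 0 in Vip1D487A in log growth, 7 in Rpd3ibs in KCl, 0 in snt1 in log growth and 3 in KCl, 0 in kcs1vip1 in H2O2, 3 for vip1 and 1 for arg82 KCl minus log, 0 for kcs1vip1 minus kcs1 and 2 minus arg82 in log growth, and 4 minus vip1 in KCl. Slide as a random block gave 0 in Vip1D487A in log growth and 1 each for vip1 and Rpd3ibs KCl minus log, as did slide as a fixed block, which could be fitted for 12 difference contrasts and gave 1 for kcs1vip1 minus vip1 in log growth and 0 for kcs1vip1 minus arg82 in both conditions. Turning the swapped Vip1D487A arrays gave 0 in log growth. Leaving out 1 array gave 1 to 3 members in wild-type H2O2, 3 to 7 in kcs1vip1 in KCl, for vip1 1 to 3 in log growth and 0 in KCl, 0 in kcs1 in KCl, 0 in arg82 in log growth and 1 to 2 in KCl, 3 to 7 in ipk1 in log growth and 4 to 7 in KCl, 0 to 1 in Vip1D487A in log growth, 1 to 2 in snt1 in log growth and 0 to 1 in KCl, 0 in kcs1vip1 in H2O2, 7 to 9 with rapamycin, 2 to 4 for kcs1vip1 KCl minus log, and for kcs1vip1 in log growth 1 to 4 minus vip1, 1 to 4 minus kcs1 and 0 to 4 minus arg82, and in KCl 1 to 3 minus vip1, 0 to 1 minus kcs1 and 0 to 2 minus arg82. Except for genes on every array, the cause was not tested. Signal over background was not assessed, since intensities were not used.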

Other observations

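One array was put in no group, because by its title kcs1vip1 in KCl was compared with kcs1vip1, while its sources name KCl in both channels. On it PUT4 was at 6.36, GAP1 at -1.77, MEP2 at -1.25, DAL4 at -0.82, OPT2 at -0.71 and MEP3 at -0.63, while MEP1 (0.05), UGA4 (-0.01) and DAL5 (-0.02) were near 0. Over all genes it correlated at 0.948 with the array of kcs1vip1 in KCl over log growth (5822 genes), and at -0.227, -0.028 and -0.165 with the 3 arrays of kcs1vip1 over wild type in KCl. These correlations describe the arrays and were not used to place it.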
